A study of Mus musculus with 6 samples.

Results

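Transcripts of 35 cell cycle and proliferation genes were examined in the whole epididymis of adult WT and Ocln-KO mice. The genes were taken by symbol from the 57127 rows of the deposited count table, in which all 35 were found. They comprise 10 genes that act in S phase, when DNA is copied, and 25 that act in G2 and mitosis, when chromosomes are separated. Both genotypes were on the C57BL/6 background, with 3 libraries of total RNA each and no treatment. Ocln-KO mice lack occludin, a membrane protein of tight junctions, constitutively and in every tissue; they were bred from heterozygous parents because the homozygous males are sterile, and whether the WT mice were their littermates is not stated. The age is labelled only as adult. The extraction text of the sample records names prefrontal cortex, whereas the tissue label is epididymis; principal cell markers of the epididymis summed to between 18378 and 32782 CPM (counts scaled to a library total of 1e6) in the 6 libraries. Of the 35 genes 0 passed the test between the genotypes (edgeR quasi-likelihood test, adjusted p under 0.05), which 8.95% of all tested genes passed. Members at an unadjusted p under 0.05 numbered 7, against 29.1% of all genes. When single libraries were left out, the number ran from 2 without Ocln-KO replicate 2 (all genes, 24.9%) to 20 without Ocln-KO replicate 3 (all genes, 26.9%). limma-voom passed 0 members (all genes, 9.03%) and DESeq2 5 (all genes, 16.8%). The genes of G2 and mitosis nevertheless mostly had the same sign, with 24 of 25 fitted log2 fold changes of Ocln-KO over WT above 0, against 50.9% of all tested genes. Their median was 0.59 and their range -0.18 to 1.17. The 10 genes of S phase had a median of -0.08.

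A dividing cell first loads the replicative helicase, a ring of MCM proteins, onto DNA, and then copies it with polymerases held by the sliding clamp PCNA while ribonucleotide reductase supplies the building blocks. The genes for this machinery are switched on by E2F factors when Rb is inactivated at the end of G1. Genes for cyclin B, its kinase CDK1 and the spindle are switched on later, in G2, through promoters that carry CCAAT boxes and an element called the cell cycle genes homology region (CHR), and their mRNAs are nearly absent from resting cells. The adult epididymal epithelium divides rarely, so mitotic transcripts in whole tissue come from few cells, and MCM and PCNA transcripts also occur in cells that are not in mitosis. In bulk RNA a larger share of dividing cells and more RNA per dividing cell cannot be told apart.

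The promoters are shown as a description of both classes. Genes were placed in a class by their known roles, which are already tied to E2F and CHR elements, so the counts are no independent support. RefSeq windows of GRCm38.p6, each of 300 bases from 250 before the transcription start to 50 after it, were at hand for 29 of the 35 genes. The CHR letters TTTGAA, searched on both strands, occurred in 15 of 20 windows of G2 and mitosis genes (75%), in 1 of 9 of S phase genes (11.1%) and in 4893 of 27025 windows of all genes (18.1%). Within 50 bases of the start they occurred in 14 of the 20 mitotic windows (70%), in 0 of the 9 S phase windows and in 4.92% of all windows. CCAAT, on either strand, occurred in 18 of 20 (90%), 8 of 9 (88.9%) and 37.9%. The E2F letters TTTCCCGC or TTTGGCGC occurred in 0 of the 20 mitotic windows, in 4 of the 9 S phase windows (44.4%; Mcm3, Mcm5, Mcm6 and Mcm7) and in 1.63% of all windows. In the members' windows no match of a motif overlapped a match of another motif. A match is a run of letters, not a measured binding site. The 180 bases before the start of 3 mitotic and 3 S phase genes follow, read 5′ to 3′ along the gene. In Mki67, Cdk1 and Ube2c the capitals mark CHR and CCAAT matches on either strand.
Mki67, chr7:135716380-135716559, minus strand: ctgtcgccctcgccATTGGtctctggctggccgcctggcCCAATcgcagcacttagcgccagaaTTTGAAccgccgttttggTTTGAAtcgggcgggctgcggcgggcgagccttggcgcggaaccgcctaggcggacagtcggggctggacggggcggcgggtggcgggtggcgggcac
Cdk1, chr10:69352913-69353092, minus strand: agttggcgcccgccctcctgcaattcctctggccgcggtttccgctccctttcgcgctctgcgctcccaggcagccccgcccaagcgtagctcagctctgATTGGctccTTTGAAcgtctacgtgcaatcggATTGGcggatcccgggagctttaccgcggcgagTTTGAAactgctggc
Ube2c, chr2:164769749-164769928, plus strand: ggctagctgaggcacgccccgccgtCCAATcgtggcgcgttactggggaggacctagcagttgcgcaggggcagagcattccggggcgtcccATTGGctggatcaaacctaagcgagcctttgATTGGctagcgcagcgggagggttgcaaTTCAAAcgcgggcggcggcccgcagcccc
In Mcm5, Mcm6 and Mcm7 the capitals mark E2F and CCAAT matches on either strand.
Mcm5, chr8:75109329-75109508, plus strand: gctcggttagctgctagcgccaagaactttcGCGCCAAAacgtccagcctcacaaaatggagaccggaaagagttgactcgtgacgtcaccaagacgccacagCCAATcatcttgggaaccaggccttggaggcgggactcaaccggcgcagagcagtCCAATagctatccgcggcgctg
Mcm6, chr1:128359706-128359885, minus strand: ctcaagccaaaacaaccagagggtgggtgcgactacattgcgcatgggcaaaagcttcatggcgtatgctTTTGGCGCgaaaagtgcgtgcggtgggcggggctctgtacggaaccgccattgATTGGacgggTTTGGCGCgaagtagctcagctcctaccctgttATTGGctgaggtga
Mcm7, chr5:138171884-138172063, minus strand: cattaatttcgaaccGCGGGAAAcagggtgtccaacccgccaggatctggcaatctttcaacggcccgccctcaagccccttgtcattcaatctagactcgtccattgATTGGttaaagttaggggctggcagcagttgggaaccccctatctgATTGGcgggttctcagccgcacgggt
Each mitotic example holds at least 1 CHR match beside its CCAAT matches, and each S phase example at least 1 E2F match. The examples were picked by name and do not stand for their class. E2F letters occurred in only 4 of 9 S phase windows, and the windows of Ccnb1, Bub1 and Cenpe held no CHR match.

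Library totals ran from 30646424 to 38870780 counts, so that 1 count equalled between 0.0267 and 0.0314 CPM after TMM scaling, and 19691 genes were abundant enough to test. Each of the 35 genes was among them. The lowest count of any member was 8, for Ube2c in WT replicate 3. Ocln had 85.8, 78.7 and 91.7 CPM in WT, against 15.1, 15.3 and 14.9 CPM in Ocln-KO, a log2 fold change of -2.50 (standard error, SE, 0.09; edgeR adjusted p = 0.000108). On the first principal component of all tested genes the WT libraries stood at 43.3, 37.0 and 52.8, Ocln-KO replicates 1 and 2 at -17.7 and -29.1, and Ocln-KO replicate 3 at -86.3, apart from the other Ocln-KO libraries. Values with and without that library are given where it decides a count. The methods do not say plainly whether a library stands for a single mouse, so the p-values measure the spread between these libraries. An exact permutation test of 3 against 3 libraries cannot give a two-sided p under 0.1, and none was used for single genes.

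Over all tested genes, 1762 of 19691 (8.95%) passed the edgeR test, 770 (3.91%) higher and 992 (5.04%) lower in Ocln-KO, against 0 of the 35 members. The smallest adjusted p among the members was 0.0765, for Rrm2. At an unadjusted p under 0.05 stood 7 members, 6 with higher and 1 with lower levels in Ocln-KO. This count depended on single libraries. It was 20 without Ocln-KO replicate 3, 19 of them higher, but 2 without Ocln-KO replicate 2, 3 without WT replicate 3 and 4 without either WT replicate 1 or Ocln-KO replicate 1. DESeq2 passed 5, namely Bub1b, Cenpe, Cenpf and Mcm7 higher and Rrm2 lower, whereas of all genes it passed 16.8%, 8.15% as higher and 8.68% as lower. Without Ocln-KO replicate 3, edgeR passed 4 members, namely Bub1b, Cenpe, Cenpf and Tpx2, all higher, against 3.67% of all genes passed as higher in the same fit. Without Ocln-KO replicate 1 it passed Mcm2 and Rrm2, both lower, against 4.3% of all genes passed as lower. With all libraries the members differed from all genes in sign rather than in calls: 28 of 35 had a log2 fold change above 0 against 50.9% of all tested genes, and their median was 0.52 against 0.01. Without Ocln-KO replicate 3, 20 of 35 members stood at an unadjusted p under 0.05, against 26.9% of all genes. At the adjusted threshold the same fit passed 4 of 35, against 8.31% of all genes in either direction. That library was the lowest of its genotype in 25 of 25 genes of G2 and mitosis. Leaving it out therefore raises their fitted values by construction, and the count of 20 is no independent support.

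**Figure D1:**
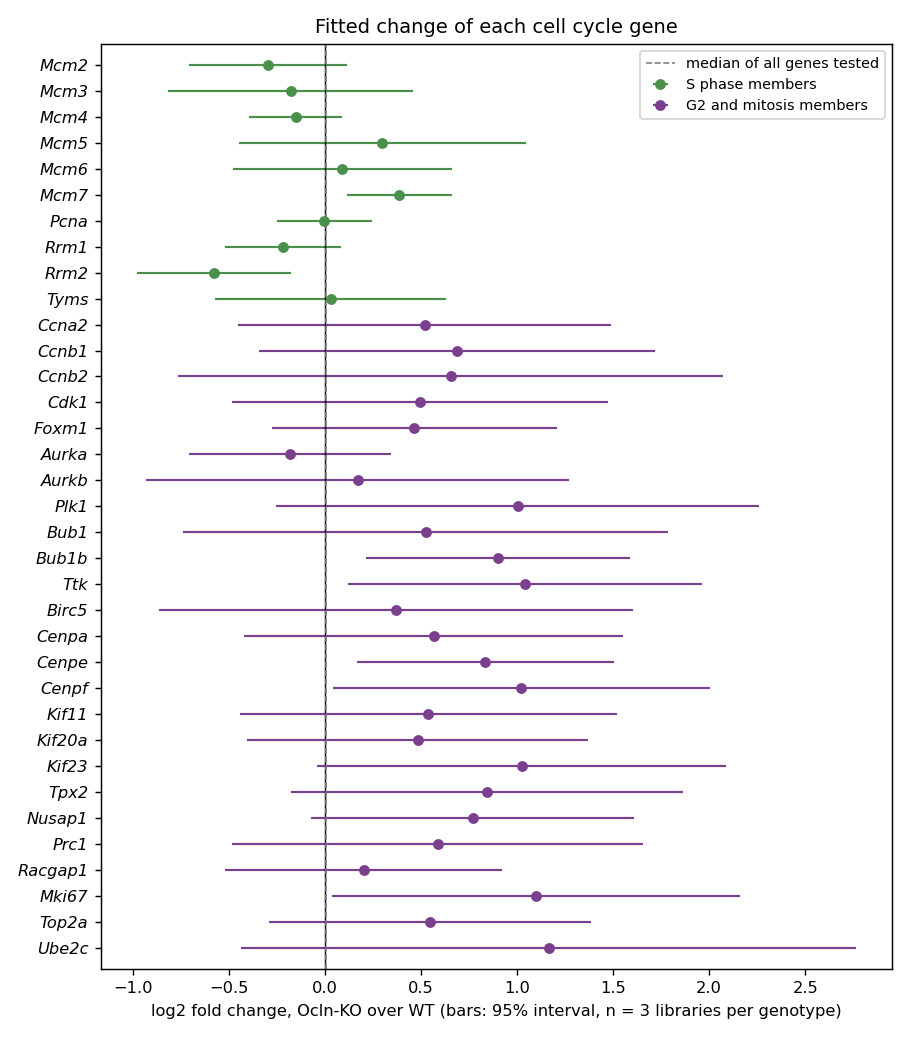
The log2 fold change of Ocln-KO over WT (x axis) with its 95% interval is plotted for each of the 35 genes (rows), for S phase genes in green and for genes of G2 and mitosis in purple. Of the 25 purple points 24 lie above 0, most of them with intervals that cross 0, and the green points lie on both sides of 0 with shorter intervals.

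Among the genes of the replicative helicase, 3 of 6 had log2 fold changes above 0 and the median was -0.03. Mcm7 (chr5:138164583-138172422 of GRCm38, the build of all gene positions given here, minus strand) encodes a subunit of the MCM ring. Its levels were 25.3, 22.5 and 22.1 CPM in WT, against 34.6, 27.8 and 29.1 CPM in Ocln-KO. Each Ocln-KO library lay above each WT library, by the narrow margin between 25.3 and 27.8 CPM. On the log2 scale the difference of Mcm7 was 0.39 (SE 0.12, 95% interval 0.12 to 0.66), with an edgeR adjusted p of 0.0777. The opposite strand of Mcm7 holds exons of Ap4m1 over 7.25% of its exonic bases and those of Cops6 over 1.45%, and the strand setting of the counting is not stated. Mcm2, another subunit of the ring, had 28.4, 26.8 and 25.4 CPM in WT, against 28.2, 20.1 and 17.3 CPM in Ocln-KO. Ocln-KO replicate 1 reached the WT range and the other Ocln-KO libraries lay below it. Mcm2 had a log2 fold change of -0.30 (SE 0.18, 95% interval -0.71 to 0.11; edgeR adjusted p = 0.310), and without Ocln-KO replicate 1 the gene passed. The remaining subunits, Mcm3, Mcm4, Mcm5 and Mcm6, had log2 fold changes of -0.18, -0.15, 0.30 and 0.09, with overlapping groups and edgeR adjusted p-values of 0.384 or more. The fitted values of the subunits did not share a sign, and those of Mcm3 and Mcm6 turned sign when a single Ocln-KO library was left out.

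Among the genes of the clamp and the nucleotide supply, 1 of 4 had a log2 fold change above 0 and the median was -0.11. Rrm2 (chr12:24708241-24714146, plus strand) encodes the small subunit of ribonucleotide reductase, which makes deoxynucleotides and is present mainly in S phase. It had 18.1, 17.7 and 20.3 CPM in WT, against 15.4, 12.3 and 9.96 CPM in Ocln-KO. Each Ocln-KO library lay below each WT library, and Rrm2 was the only member of which this was so, against 19.4% of all tested genes. The log2 fold change was -0.58 (SE 0.17, 95% interval -0.98 to -0.17) and the edgeR adjusted p 0.0765. Rrm1, the large subunit, had 60.6, 62.2 and 80.7 CPM in WT, against 62.8, 59.0 and 53.3 CPM in Ocln-KO. The groups overlapped, since Ocln-KO replicate 1 lay between WT replicates 2 and 3, and the log2 fold change was -0.22 (edgeR adjusted p = 0.313). Pcna, the sliding clamp, had 28.4, 27.7 and 32.0 CPM in WT, against 32.3, 28.1 and 27.5 CPM in Ocln-KO. Both groups covered the same range. Its log2 fold change was -0.004 (SE 0.11; edgeR adjusted p = 0.987) with a 95% interval from -0.25 to 0.24. The pseudogene Pcna-ps2, a near copy, had 159, 69 and 11 counts in WT and 1, 1 and 5 counts in Ocln-KO, against at least 895 counts of Pcna in each library, and how reads that align to both were counted is not stated. Tyms, thymidylate synthase, had a log2 fold change of 0.03 (95% interval -0.57 to 0.63).

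Among the G2 cyclins, their kinase and their transcription factor, 5 of 5 log2 fold changes were above 0, with a median of 0.52. Ccnb1, cyclin B1, had 1.95, 2.69 and 1.37 CPM in WT, against 4.05, 4.17 and 1.48 CPM in Ocln-KO. Ocln-KO replicates 1 and 2 lay above each WT library, and Ocln-KO replicate 3 lay beside the lowest of them. The log2 fold change of Ccnb1 was 0.69 (SE 0.44, 95% interval -0.34 to 1.72; edgeR adjusted p = 0.348). Cdk1, the kinase that cyclin B activates for entry into mitosis, had 3.66, 4.71 and 1.59 CPM in WT, against 6.10, 4.86 and 3.08 CPM in Ocln-KO. Its libraries had the same order as those of Ccnb1 at the low end, with replicate 3 lowest in both genotypes. On the log2 scale the difference of Cdk1 was 0.50 (SE 0.42, 95% interval -0.48 to 1.47; edgeR adjusted p = 0.480), with 0.16 without WT replicate 3 and 0.83 without WT replicate 2. Ccna2, Ccnb2 and Foxm1, which encode cyclins A2 and B2 and a forkhead factor of G2 genes, had log2 fold changes of 0.52, 0.65 and 0.47, all with overlapping groups. The pseudogene Ccnb2-ps had 6 to 15 counts a library, against 31 to 139 of Ccnb2. Exons of Exosc9 lie on the opposite strand over 12.5% of Ccna2.

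Among the mitotic kinases and checkpoint genes, 5 of 6 log2 fold changes were above 0, with a median of 0.71. Bub1b (chr2:118598211-118641591, plus strand) encodes BubR1, which delays anaphase until chromosomes are attached. It had 2.75, 5.18 and 3.82 CPM in WT, against 8.28, 8.50 and 5.17 CPM in Ocln-KO. Ocln-KO replicate 3 lay just under WT replicate 2, so the groups overlapped by this narrow margin. Bub1b had a log2 fold change of 0.90 (SE 0.30, 95% interval 0.21 to 1.59) and an edgeR adjusted p of 0.0950. Ttk, the Mps1 kinase of the same checkpoint, had 1.47, 1.43 and 0.619 CPM in WT, against 2.46, 2.88 and 1.92 CPM in Ocln-KO. Each Ocln-KO library lay above each WT library; Ttk and Mcm7 were the only 2 of 35 members of which this was so, against 16.9% of all tested genes. The log2 fold change of Ttk was 1.04 (SE 0.40, 95% interval 0.12 to 1.96; edgeR adjusted p = 0.132). Plk1, Bub1 and Aurkb, kinases of mitotic entry, the checkpoint and the passenger complex, had log2 fold changes of 1.004, 0.52 and 0.17. Aurka, which matures the spindle poles, had the only negative value among the genes of G2 and mitosis, -0.18 (95% interval -0.70 to 0.34), and its groups overlapped.

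Among the genes of the centromere and the passenger complex, 4 of 4 log2 fold changes were above 0, with a median of 0.70. Cenpe, a kinesin that moves chromosomes to the spindle equator, had 8.36, 7.61 and 4.76 CPM in WT, against 15.2, 13.6 and 8.19 CPM in Ocln-KO. Cenpf, a large protein of the outer kinetochore, had 9.03, 11.2 and 5.68 CPM in WT, against 21.9, 23.3 and 7.51 CPM in Ocln-KO. In both genes Ocln-KO replicates 1 and 2 lay well above WT and Ocln-KO replicate 3 lay within the WT range. On the log2 scale the difference of Cenpe was 0.84 (SE 0.29, 95% interval 0.17 to 1.51; edgeR adjusted p = 0.107). Cenpf had a log2 fold change of 1.02 (SE 0.42, 95% interval 0.04 to 2.004; edgeR adjusted p = 0.156). Cenpa, the histone variant of centromeres, and Birc5, survivin, had log2 fold changes of 0.57 and 0.37, with edgeR adjusted p-values of 0.423 and 0.690.

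Among the genes of the spindle and of cytokinesis, 7 of 7 log2 fold changes were above 0, with a median of 0.59. Kif23, a kinesin of the central spindle, had 1.36, 3.02 and 1.05 CPM in WT, against 4.83, 3.92 and 2.28 CPM in Ocln-KO. Again Ocln-KO replicates 1 and 2 lay above WT, while Ocln-KO replicate 3 lay between WT replicates 1 and 2. The log2 fold change of Kif23 was 1.02 (SE 0.46, 95% interval -0.04 to 2.09; edgeR adjusted p = 0.187). Tpx2 and Nusap1, which bind spindle microtubules, had log2 fold changes of 0.84 and 0.77. Prc1 and Racgap1, partners of Kif23 in the central spindle, had 0.59 and 0.20. Kif11 and Kif20a, further mitotic kinesins, had 0.54 and 0.48, and exons of Cdc23, itself a mitotic gene, lie on the opposite strand over 29.3% of Kif20a.

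Mki67 (chr7:135689784-135716361, minus strand) encodes Ki-67, the coat protein of mitotic chromosomes that is used to stain dividing cells. It had 17.1, 25.3 and 6.40 CPM in WT, against 45.1, 37.6 and 21.6 CPM in Ocln-KO. Ocln-KO replicates 1 and 2 lay above each WT library, and Ocln-KO replicate 3 lay between WT replicates 1 and 2. On the log2 scale the difference of Mki67 was 1.10 (SE 0.46, 95% interval 0.04 to 2.16), with an edgeR adjusted p of 0.160; left-out libraries moved it from 0.72 without WT replicate 3 to 1.56 without WT replicate 2. Top2a, the topoisomerase that untangles sister chromosomes, had 17.0, 18.1 and 7.51 CPM in WT, against 26.4, 22.9 and 13.0 CPM in Ocln-KO. It had the same order of libraries within each genotype, and a log2 fold change of 0.55 (SE 0.36, 95% interval -0.29 to 1.39; edgeR adjusted p = 0.361), with 0.24 without WT replicate 3 and 0.79 without Ocln-KO replicate 3. Ube2c, the ubiquitin-conjugating enzyme of the anaphase-promoting complex, had the highest fitted value of all members, 1.17, with the widest interval, -0.44 to 2.77. Exons of Tnnc2 lie on the opposite strand over 22.8% of Ube2c.

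**Figure D2:**
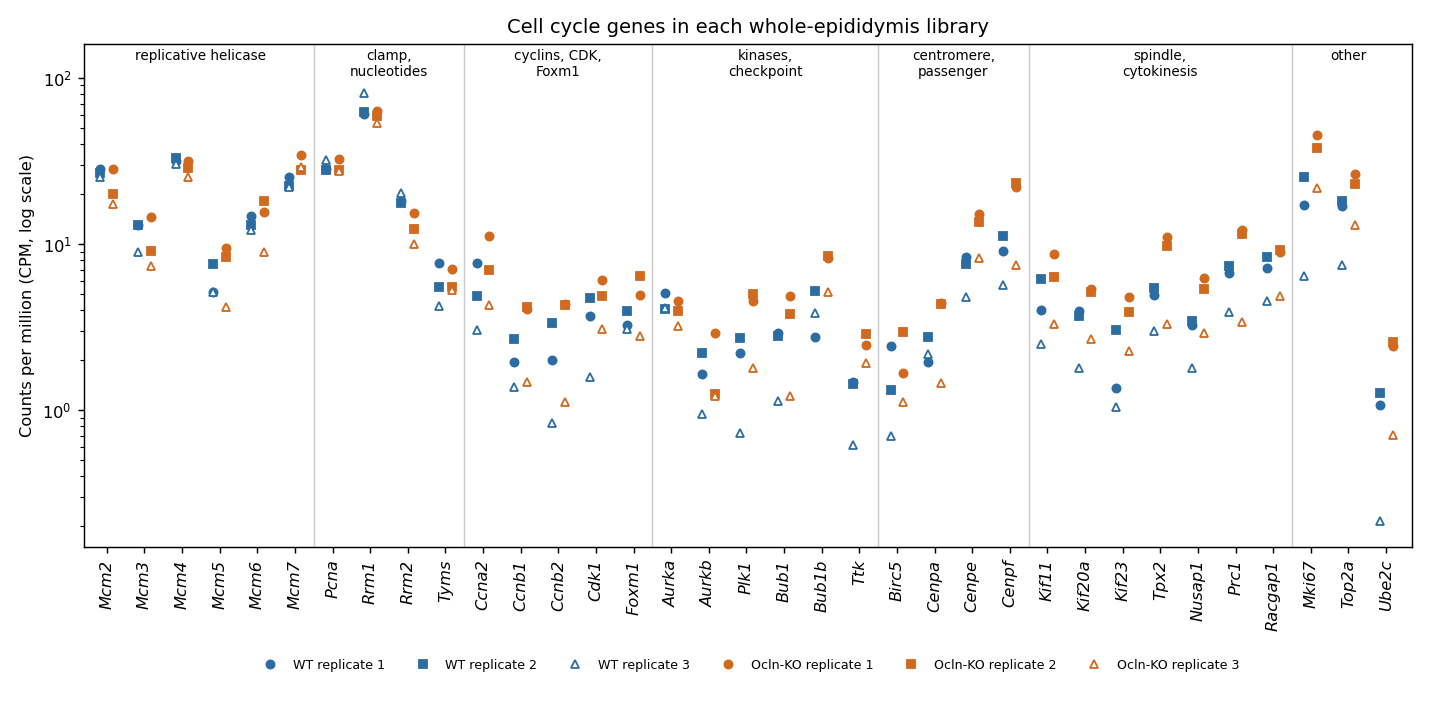
Each symbol is the level of a gene (x axis, grouped by role) in 1 library, in CPM on a log scale, with WT in blue and Ocln-KO in orange and replicate 3 of each genotype as an open triangle. In the genes of G2 and mitosis the open triangles are mostly the lowest symbols of their genotype, as in Mki67 with 6.40 CPM in WT replicate 3 and 21.6 CPM in Ocln-KO replicate 3.

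The genes of G2 and mitosis had a shared order of libraries within each genotype. Ocln-KO replicate 3 was the lowest Ocln-KO library in 25 of 25 of these genes, against 37.1% of all tested genes, and WT replicate 3 was the lowest WT library in 22 of 25, against 37.0% of all tested genes. Ocln-KO replicates 1 and 2 both lay above every WT library in 21 of 25 genes (84%), against 22.6% of all tested genes. Ocln-KO replicate 3 lay within the WT range in 20 of them, above it in 1 and below it in 4. As the 25 genes shared this order of libraries, their common sign is not 25 separate observations. The estimated variation between libraries of a genotype (edgeR's biological coefficient of variation) had a median of 37.6% for the genes of G2 and mitosis, with a range from 22.2% to 57.7%. For the 8614 genes of like mean level, between 1.38 and 25.5 CPM, the median was 22.1%, and for the genes of S phase it was 17.5%. Leaving out a library moved the median log2 fold change of the genes of G2 and mitosis from 0.59 to 0.98 without Ocln-KO replicate 3 and to 0.40 without WT replicate 3, and the number above 0 stayed between 22 and 24 of 25. Single left-out libraries likewise moved the log2 fold change of Ccnb1 between 0.46 and 1.04, of Cenpf between 0.77 and 1.39, of Cenpe between 0.63 and 1.06 and of Kif23 between 0.75 and 1.602. In S phase genes Ocln-KO replicate 3 was the lowest Ocln-KO library in 9 of 10 and lay below every WT library in 8 of 10. Their median of -0.08 turned to 0.03 without that library and to 0.01 when libraries were scaled by total counts only.

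Summed over the 25 genes of G2 and mitosis, the level was 123, 143 and 67.2 CPM in WT, against 233, 210 and 104 CPM in Ocln-KO, with means of 111 ± 39.2 and 182 ± 69.0 CPM (SD, n = 3). The groups overlapped, because Ocln-KO replicate 3 lay under WT replicates 1 and 2. Summed over the 10 genes of S phase, the level was 233, 229 and 241 CPM in WT, against 251, 217 and 188 CPM in Ocln-KO, with means of 234 ± 6.48 and 219 ± 31.6 CPM. Ocln-KO libraries lay on both sides of the narrow WT range. The ratio of the mitotic to the S phase sum was 0.527, 0.625 and 0.279 in WT and 0.926, 0.971 and 0.550 in Ocln-KO. Replicate 3 had the lowest ratio of each genotype, and the genotypes overlapped between 0.550 and 0.625.

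Levels of different genes were compared per kilobase of exon. In WT the 8 highest members were Pcna (12.2 CPM per kb), Mcm4 (8.80), Rrm2 (6.75), Rrm1 (6.16), Mcm7 (5.26), Mcm2 (3.86), Mcm3 (3.11) and Mcm6 (2.85 CPM per kb), all of S phase, while the remaining S phase genes, Mcm5 and Tyms, had 1.49 and 0.957. The lowest were Kif23 (0.229), Ttk (0.239) and Ube2c (0.326 CPM per kb), all of mitosis. Mki67 had 1.62 CPM per kb in WT, just below Aurka with 1.74. In Ocln-KO Mki67 had 3.46 CPM per kb, above Mcm2 with 3.14, whereas Aurka had 1.54.

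Markers of cell types that can contain dividing cells or their transcripts also differed between the libraries. Of all tested genes 50.9% had log2 fold changes above 0, and 13.9% were higher at an unadjusted edgeR p under 0.05. As higher 3.91% passed with edgeR and 8.15% with DESeq2. Macrophage markers, whose 12 genes all had log2 fold changes above 0 (8 at an unadjusted p under 0.05, 0 passed with edgeR or limma-voom, 5 with DESeq2), summed to 261, 228 and 221 CPM in WT, against 269, 327 and 487 CPM in Ocln-KO, and Ptprc, the pan-leukocyte antigen CD45, had 10.8 to 15.1 CPM in WT, against 29.2 to 46.3 CPM in Ocln-KO (log2 fold change 1.54, SE 0.19; edgeR adjusted p = 0.0110). Markers of T and NK cells summed to between 3.21 and 4.41 CPM in WT and between 6.48 and 10.5 CPM in Ocln-KO, with Trac and Cd2 at 0 in every library, and of 7 tested markers 0 passed with any tool and 5 had an unadjusted p under 0.05. Those of B and plasma cells summed to between 20.6 and 33.0 and between 39.9 and 49.2 CPM, with 1 of 5 tested markers higher, Jchain of antibody-secreting cells. Neutrophil markers summed to at most 4.94 CPM in any library, with 1 of 8 abundant enough to test and Elane at 0 throughout. Within Ocln-KO, immune marker sums were highest in replicates 2 or 3, and the mitotic sum was highest in replicate 1. The order of such sums cannot show which cells the mitotic transcripts came from, and this was not tested.

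Germ cell transcripts reach the epididymis with sperm and shed cells. Meiotic germ cell markers summed to 9.35, 9.02 and 10.6 CPM in WT, against 17.1, 16.6 and 5.59 CPM in Ocln-KO. Of 8 tested markers 1 passed, Spo11, which was higher, against 3.91% of all tested genes. Spo11 rested on 11, 5 and 7 counts in WT and 33, 45 and 27 counts in Ocln-KO. Spermatid and sperm markers summed to 557, 456 and 478 CPM in WT, against 607, 612 and 185 CPM in Ocln-KO, and of 12 tested 0 passed with any tool or had an unadjusted p under 0.05. Ocln-KO replicate 3 had the lowest germ cell sums of all 6 libraries and the lowest mitotic sum of its genotype. WT replicate 3 had the lowest mitotic sum of all, with germ cell sums of 10.6 and 478 CPM. Single markers differed in order among the WT libraries, with 117, 107 and 74.6 CPM of Smcp and 21.2, 12.4 and 21.2 CPM of Prm1. Fibroblast markers summed to between 2502 and 2750 CPM in WT and to 1971, 2723 and 5476 CPM in Ocln-KO, the last in replicate 3. The part of immune, germ cell and stromal transcripts in the mitotic levels was not tested.

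**Figure D3:**
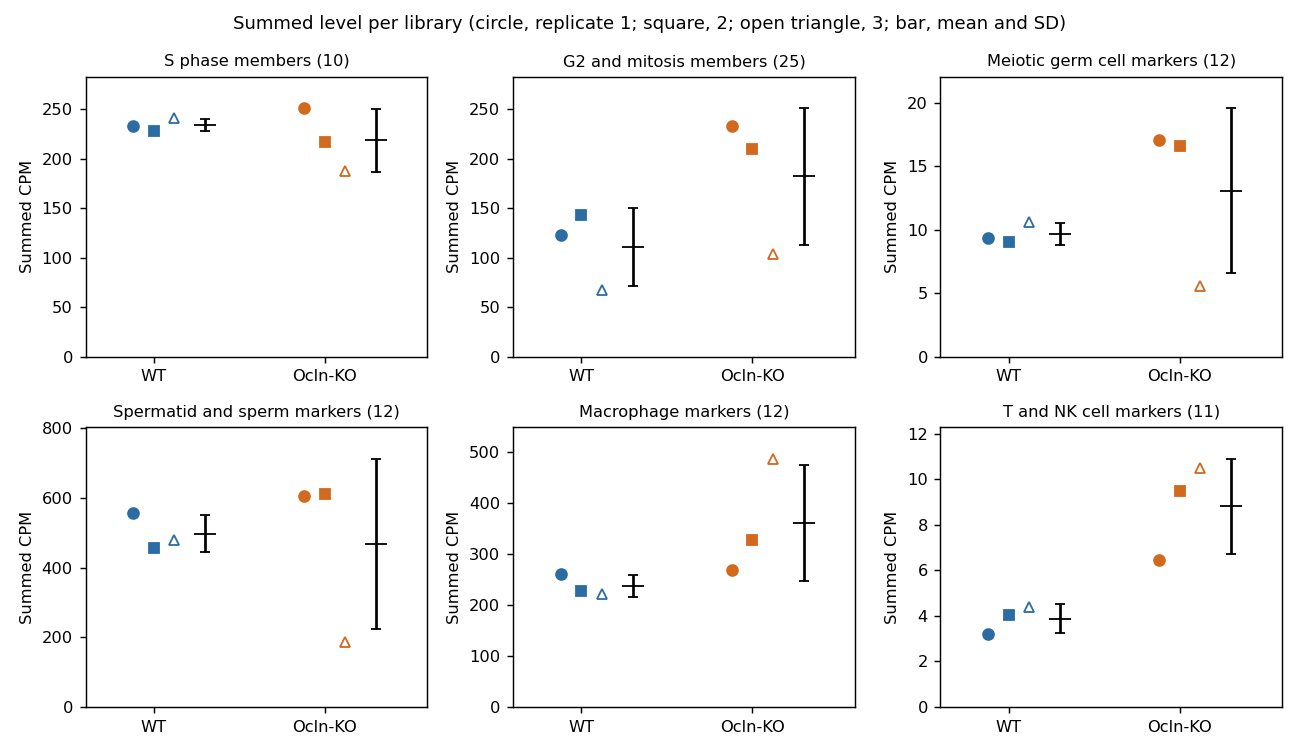
Each panel gives the summed CPM of a gene list in each library of WT (blue) and Ocln-KO (orange), with circles for replicate 1, squares for replicate 2 and open triangles for replicate 3, and the mean with its SD (n = 3) in black. The mitotic sum of Ocln-KO replicate 3 (104 CPM) lies within the WT range, its sperm marker sum (185 CPM) is the lowest of all and its macrophage marker sum (487 CPM) the highest.

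Of the epithelial and other lists, clear cell markers summed to between 205 and 285 CPM in WT and between 70.2 and 118 CPM in Ocln-KO, with 4 of 7 tested lower, the transcription factor Foxi1 and the proton pump subunits Atp6v1b1, Atp6v0d2 and Atp6v0a4. Basal cell markers summed to between 235 and 247 and between 242 and 286 CPM, and 1 of 6 passed as higher, Krt14. Among principal cell markers 1 of 9 passed as higher, Gpx5, and 1 as lower, Aqp9. Smooth muscle markers summed to between 1204 and 1450 and between 1640 and 2218 CPM, and 2 of 7 passed as higher, Myh11 and Actg2. Endothelial markers, of which 0 of 7 passed with any tool and 2 had an unadjusted p under 0.05, summed to between 109 and 123 and between 109 and 142 CPM. Of 8 fibroblast markers 0 passed with edgeR or limma-voom, 1 with DESeq2, and 3 had an unadjusted p under 0.05. Markers of red cells and their precursors summed to between 22.1 and 49.5 CPM in WT and between 6.03 and 13.2 CPM in Ocln-KO, with 1 of 5 lower, Alas2. The marker genes named singly were picked after their values were seen, and of all tested genes 3.91% passed as higher and 5.04% as lower. At an unadjusted edgeR p under 0.05 stood 29.1% of all tested genes, and DESeq2 passed 8.15% as higher. None of these lists had the library order of the mitotic genes in both genotypes. A sum follows the most abundant genes of its list, so its order cannot show the part of a cell type in the mitotic levels. That part was not tested.

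Other genes of the same processes were listed by their known roles. Of all tested genes 3.91% passed as higher and 5.04% as lower, the shares to set beside the calls in each list below. At an unadjusted edgeR p under 0.05 stood 13.9% as higher and 15.2% as lower. DESeq2 passed 8.15% as higher and 8.68% as lower. Of 51 tested genes of replication outside the members, 31 had log2 fold changes above 0, the median was 0.07, and 1 passed as higher. As lower 0 passed, with 3 at an unadjusted p under 0.05 and 2 passed with DESeq2. The gene that passed was Pole, the catalytic subunit of the leading-strand polymerase, which had 17.2, 14.0 and 13.2 CPM in WT, against 20.3, 22.0 and 24.96 CPM in Ocln-KO. Each Ocln-KO library lay above WT, and the highest was replicate 3, unlike in the mitotic members. Pole had a log2 fold change of 0.60 (SE 0.14; edgeR adjusted p = 0.0442).

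Of 84 tested genes of mitosis outside the members, 62 had log2 fold changes above 0, against 50.9% of all tested genes, with a median of 0.34. As higher 3 passed and as lower 1, no more than the shares of all tested genes, 3.91% and 5.04%. In 46 of the 84 (54.8%), against 22.6% of all tested genes, Ocln-KO replicates 1 and 2 both lay above every WT library. Smc4, a condensin subunit that compacts chromosomes, rose with a log2 fold change of 0.60 (SE 0.12; edgeR adjusted p = 0.0316). Ect2, the exchange factor that starts cytokinesis, had 7.27, 5.48 and 8.21 CPM in WT, against 16.0, 13.2 and 10.9 CPM in Ocln-KO, a log2 fold change of 0.94 (SE 0.21; edgeR adjusted p = 0.0387). Ccnf, cyclin F, which serves a ubiquitin ligase in G2, had 3.42, 2.84 and 1.96 CPM in WT, against 5.201, 5.17 and 6.56 CPM in Ocln-KO, a log2 fold change of 1.04 (SE 0.26; edgeR adjusted p = 0.0493). The groups did not overlap in any of these 3 genes, and in Ccnf it was Ocln-KO replicate 3 that was highest. Ocln-KO lay above WT without overlap in 11 of the 84, against 16.9% of all tested genes. Zwint, a kinetochore protein that is also abundant in cells outside division, fell by 0.44 on the log2 scale (SE 0.10; edgeR adjusted p = 0.0425), from 216 ± 16.9 to 159 ± 15.5 CPM (SD, n = 3).

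Genes of the G1 decision, D-type cyclins, their kinases and the Rb pathway, had a median of -0.12, with 7 of 24 above 0, and 1 passed as lower. As higher 0 passed, with 1 at an unadjusted p under 0.05. Ccnd2, cyclin D2, had 218, 219 and 260 CPM in WT, against 125, 123 and 104 CPM in Ocln-KO. All Ocln-KO libraries lay far below WT, and the gene fell by 0.99 on the log2 scale (SE 0.11; edgeR adjusted p = 0.00863). Ccnd1, cyclin D1, had 143, 153 and 111 CPM in WT, against 295, 208 and 154 CPM in Ocln-KO. Each Ocln-KO library lay above each WT library, with 154 against 153 CPM at the nearest. The log2 fold change of Ccnd1 was 0.70 (SE 0.23; edgeR adjusted p = 0.0958), and it passed with DESeq2, with no count filter and without Ocln-KO replicate 3.

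CDK inhibitors hold cells out of the cycle. Of 8 tested, 7 had log2 fold changes above 0, with a median of 0.61, and 1 passed. Cdkn2b, p15INK4B, an inhibitor of CDK4 and CDK6, had 2.06, 2.52 and 1.80 CPM in WT, against 8.38, 6.65 and 5.68 CPM in Ocln-KO. All Ocln-KO libraries lay above WT, with a log2 fold change of 1.70 (SE 0.24; edgeR adjusted p = 0.0146). Cdkn1a, p21, a target of p53, had 13.7, 11.7 and 18.6 CPM in WT, against 27.4, 20.3 and 26.5 CPM in Ocln-KO. The groups did not overlap, and the log2 fold change of 0.75 (SE 0.20) had an edgeR adjusted p of 0.0540, with values from 0.00635 to 0.171 over 14 alternatives. Cdkn1b, p27, had a log2 fold change of 0.28 (edgeR adjusted p = 0.156). Cdkn2a, which encodes p16INK4A and p19ARF, had 4, 0 and 0 counts in WT and 20, 13 and 14 counts in Ocln-KO; it did not pass with edgeR (adjusted p = 0.0605) but passed with DESeq2 (adjusted p = 0.0258) and limma-voom (adjusted p = 0.0340), with values up to 0.175 over 13 alternatives, and no fold is given at these counts.

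Of 23 tested p53 response genes, which answer DNA damage and other stress, 13 had log2 fold changes above 0, with a median of 0.29, and 5 passed as higher and 1 as lower. Gadd45a, a stress gene that slows entry into mitosis, rose with a log2 fold change of 1.13 (SE 0.26; edgeR adjusted p = 0.0382), and Pmaip1, the pro-apoptotic Noxa, with 1.02 (SE 0.14; edgeR adjusted p = 0.0137). Plk3, Sesn1 and Perp rose with 0.97, 0.53 and 0.51. Sesn2, of the same sestrin family as Sesn1, fell by 0.56 on the log2 scale (edgeR adjusted p = 0.0359).

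**Figure D4:**
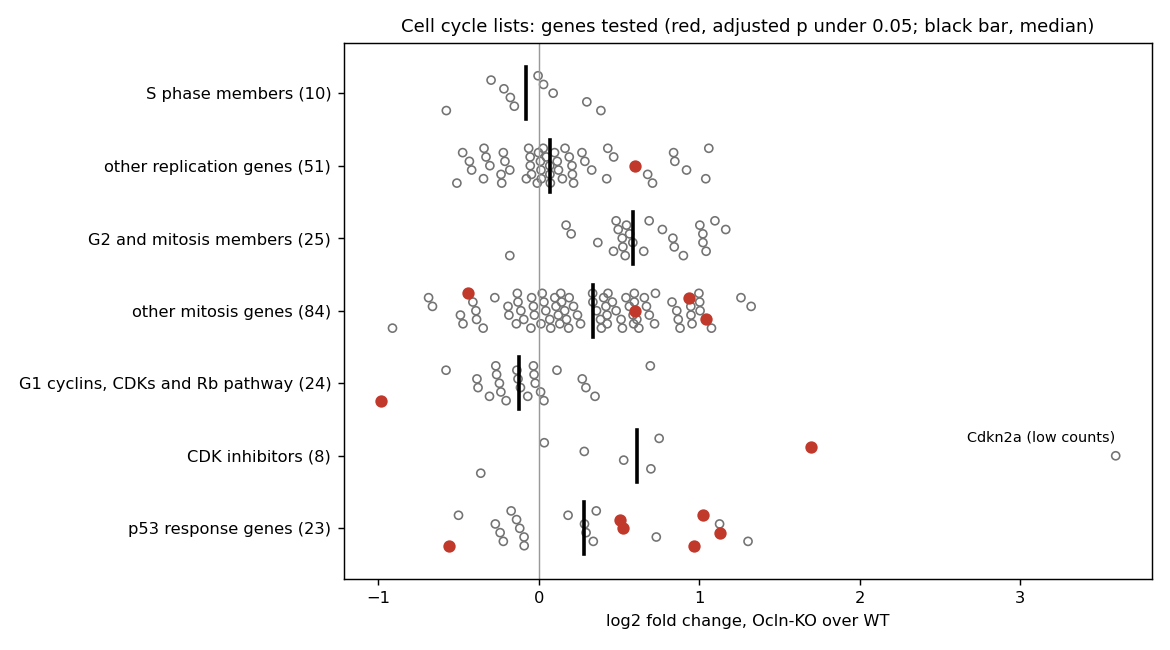
Each circle is a tested gene at its log2 fold change of Ocln-KO over WT (x axis), in 7 lists of cell cycle genes (rows, with the number tested); red points passed the edgeR test and black bars are medians. Cdkn2a, at the far right, rests on the few counts given above. The median of the mitotic members lies at 0.59 and that of the CDK inhibitors at 0.61, whereas that of the G1 list lies at -0.12.

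Replication-dependent histone genes are transcribed mainly in S phase, and most of their mRNAs lack poly(A) tails. The libraries were depleted of rRNA rather than selected for poly(A), so mRNAs without tails were not removed by such a selection. The 66 listed genes were taken by symbol prefix, and whether each is silent outside S phase was not checked, so their sum does not measure S phase alone. It was 588, 567 and 634 CPM in WT, against 492, 460 and 450 CPM in Ocln-KO, and each Ocln-KO library lay below each WT library. Of 56 tested, 38 had log2 fold changes below 0, the median was -0.19, and 5 passed, all lower, against 5.04% of all tested genes. Hist1h2be fell by 0.68 (edgeR adjusted p = 0.0251), Hist1h4c by 0.68 and Hist1h3e by 0.71 on the log2 scale, and Hist1h4d and Hist1h3f by 0.42 and 0.51. These genes are near-identical copies, and how reads that align to several of them were counted is not stated, so the values of single copies are uncertain. The sum stood in the order of Rrm2, with WT above Ocln-KO throughout, and not in that of the mitotic genes.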

How the data were processed

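The 3 WT and 3 Ocln-KO libraries were prepared, as the study's methods state, from Trizol-extracted total RNA by rRNA depletion and a directional kit, and sequenced as paired ends in 1 lane. The authors trimmed adaptors, discarded low-quality reads, mapped the others to GRCm38 by HISAT2 2.0.4 (version per the submitters' processing notes) and counted them with HTSeq. The authors deposited an unnormalized whole-number count per gene and library. The strand setting of the counting and how multiply aligned reads were handled are not given in the sources used here. The methods speak of separate extractions and also of pooled RNA samples.

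Genotypes were compared with edgeR 4.0.16 in R 4.3.3 (filterByExpr by genotype, TMM factors, glmQLFit and glmQLFTest, Benjamini-Hochberg adjustment over the 19691 genes tested of 32046 with a count). A gene passed at an adjusted p under 0.05. CPM are counts over TMM-scaled library sizes, and levels per kb divide them by the exonic bases of the GENCODE annotation of GRCm38, which also gave gene positions and overlaps. Standard errors are the log2 fold change over the square root of F. Date conversion by a spreadsheet had altered 27 symbols (0.145% of counts), 3 listed symbols were matched by a synonym and 1 was not in the table. The alternatives were DESeq2 1.42.0, limma-voom (limma 3.58.1), scaling by RLE, by total counts or by TMM with the top 20 genes removed, testing unfiltered genes or those with 10 or more counts in all libraries, a block for the replicate number, omission of each library in turn and a 2-fold threshold. The scripts were tested on simulated counts. Members and lists were chosen with earlier results of these data known. Full statistics were given for the 8 members with the lowest unadjusted p and for Mki67, Top2a, Pcna, Ccnb1, Cdk1 and Mcm2, and of other lists the genes that passed and Ccnd1, Cdkn1a, Cdkn1b and Cdkn2a were named.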

Additional observations from a re-analysis of the deposited data

How the results depend on the processing

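With 3 libraries a genotype and mitotic genes whose libraries varied more than those of most genes, the calls depended on the tool and on single libraries. Passed members numbered 0 with limma-voom, with RLE scaling, total counts only or TMM with the top 20 genes removed, and with unfiltered genes or those with 10 or more counts in all libraries (34 members). DESeq2 passed 4 higher and 1 lower, and leaving out a library gave 0 to 4 higher and 0 to 2 lower. The methods speak of 3 pairs of WT and Ocln-KO mice, and whether the replicate numbers follow them is not stated. Deviations of same-numbered libraries over all genes had correlations from -0.05 to -0.003, which with 3 libraries a genotype cannot exclude pairing. In 22 of 25 genes of G2 and mitosis replicate 3 was lowest in both genotypes. A replicate block left 0 members and 41 of all genes passed, with 14 members at an unadjusted p under 0.05, against 24.4% of all genes. The block also left 0 passed genes in each other list, in both directions. Members above 0 among the 25 genes of G2 and mitosis (24 where Ube2c was filtered out) numbered 22 to 24 in every alternative.

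In the other lists DESeq2 passed, as lower, 2 replication genes, and 7 mitosis genes higher and 2 lower, 1 G1 gene higher and 3 lower, and 3 CDK inhibitors higher. limma-voom passed 5 mitosis genes and 2 CDK inhibitors higher. Total counts only passed 6 mitosis genes and 2 CDK inhibitors higher, and 0 mitosis genes and 0 p53 response genes lower. No count filter passed 1 G1 gene higher and 2 lower, and 2 CDK inhibitors. Left-out libraries gave 0 to 1 replication genes higher, 0 to 4 mitosis genes higher and 0 to 2 lower, 0 to 1 G1 genes in either direction, 0 to 1 CDK inhibitors higher, and 0 to 3 p53 response genes higher and 0 to 1 lower. A fold over 2 besides the adjusted p left 1 mitosis gene and 2 p53 response genes higher, and 0 replication genes higher, 0 mitosis genes, 0 G1 genes and 0 p53 response genes lower.

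Log2 fold changes of 7 members turned sign, none of them past the threshold. Pcna turned to 0.0028 with DESeq2, to 0.0029 with RLE scaling and to 0.082 with total counts only, which moved the median of all genes to 0.09. Over the left-out libraries Pcna ran from -0.074 to 0.064, Mcm3 from -0.50 to 0.016, Mcm6 from -0.12 to 0.33, Tyms from -0.15 to 0.29, Aurkb from -0.36 to 0.47, Birc5 from -0.080 to 0.93 and Racgap1 from -0.011 to 0.45. Over the members and named list genes under each alternative, 617 log2 fold changes kept their direction and side of the threshold, 75 lost the threshold, 19 gained it and 15 turned sign. The causes were not tested.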
